A study of Mus musculus with 14 samples.

Results

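Branched-chain amino acid (BCAA) catabolism was followed through 10 of its genes, taken by symbol from a table of 49315 genes counted in the left ventricle of mice. The 10 genes are Bcat2, Bckdha, Bckdhb, Dbt, Bckdk, Ppm1k, Ivd, Mccc1, Mccc2 and Hibadh. All 10 were found, each had between 897 and 12709 reads in every library, and all 10 were among the 15292 genes with enough reads for a test. Male mice of wild-type (WT) or HCN4F genotype were operated at 10 to 12 weeks of age and their hearts were taken 5 weeks later. HCN4F is a knock-in line in which a tyrosine of the C-linker of the pacemaker channel HCN4, encoded in exon 4 of Hcn4, is exchanged for phenylalanine, which raises the activity of the channel and the heart rate. The exchange is not limited to cardiac cells, and the strain background is not given in the sources used here. Transverse aortic constriction (TAC), a narrowing of the aorta calibrated with a needle, loaded the left ventricle with pressure, and Sham animals had the operation without the constriction. The 14 libraries used here comprise 4 WT-Sham, 4 HCN4F-Sham, 2 WT-TAC (replicates 2 and 3) and 4 HCN4F-TAC hearts. Further WT-TAC hearts of the study are not analysed here.

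The BCAAs leucine, isoleucine and valine share the first steps of their breakdown. Cytosolic or mitochondrial aminotransferases remove the amino group, and the mitochondrial branched-chain ketoacid dehydrogenase complex (BCKDH) then decarboxylates the ketoacid in an irreversible step that is switched off by a kinase and on by a phosphatase. After that step each amino acid has an arm of its own, which ends in acetyl-CoA, acetoacetate or propionyl-CoA, and lower expression of these genes has been described in failing hearts.

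Libraries held 22309914 to 35210939 counts, with 13.9% to 23.1% of them on mitochondrial genes. Replicates of a group differed by more than counting noise. Levels are given as CPM (reads of a gene per 1000000 counted reads) scaled by TMM normalization, and differences as log2 fold changes with their standard error (SE) from edgeR's quasi-likelihood test, with p-values adjusted over all 15292 tested genes by the Benjamini-Hochberg method. A gene was called where the adjusted p was under 0.05. The tissue label was checked against markers, of which 8 cardiomyocyte genes summed to 52881 CPM or more in each library, whereas 4 atrial myocyte genes summed to at most 5.04 CPM in 13 libraries and to 31.1 CPM in HCN4F-TAC replicate 2. Libraries are called replicates by their labels and the study describes them as biological replicates.

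Levels of different genes were compared per kilobase of the annotated principal transcript. In WT-Sham hearts (n = 4) Hibadh, the dehydrogenase of the valine arm, was highest with 113 ± 6.74 CPM per kb (mean ± SD), followed by Ivd, the isovaleryl-CoA dehydrogenase of the leucine arm, with 104 ± 9.33 CPM per kb, and the ranges of these genes overlapped. Bcat2, the mitochondrial aminotransferase, stood at 78.4 ± 2.31 CPM per kb. Within BCKDH the E1α subunit gene Bckdha had 71.3 ± 1.42 CPM per kb, the E1β subunit gene Bckdhb 48.6 ± 2.00 and the E2 core gene Dbt 16.0 ± 1.11. Both genes of methylcrotonyl-CoA carboxylase, the biotin enzyme of the leucine arm, differed in the same measure, with 46.3 ± 1.96 CPM per kb for Mccc1 and 26.6 ± 0.46 for Mccc2. Bckdk, the BCKDH kinase, had 26.2 ± 0.62 CPM per kb, within the spread of Mccc2, and Ppm1k, the mitochondrial BCKDH phosphatase, was lowest with 12.5 ± 1.05. The order depends on the length that is used. Per kilobase of all annotated exons, Hibadh and Mccc1, whose exons span 10179 and 10952 bases against 1825 and 2455 in the principal transcript, took rank 6 and rank 10.

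The promoters of Bckdhb, Mccc2, Bcat2 and Ppm1k are shown because these 4 genes are the members called lower after TAC in HCN4F hearts. Each line gives the 250 bases before the most upstream RefSeq start (GRCm38.p6), 5′ to 3′ on the strand of the gene, and capitals mark the letters CCAAT or their reverse complement ATTGG.
Bckdhb, chr9:83924887-83925136, plus strand: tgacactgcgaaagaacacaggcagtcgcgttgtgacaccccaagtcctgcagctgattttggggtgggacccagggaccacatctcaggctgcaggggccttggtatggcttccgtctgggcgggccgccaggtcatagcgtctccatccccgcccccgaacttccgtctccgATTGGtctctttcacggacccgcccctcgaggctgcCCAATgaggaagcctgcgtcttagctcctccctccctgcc
Mccc2, chr13:100015640-100015889, minus strand: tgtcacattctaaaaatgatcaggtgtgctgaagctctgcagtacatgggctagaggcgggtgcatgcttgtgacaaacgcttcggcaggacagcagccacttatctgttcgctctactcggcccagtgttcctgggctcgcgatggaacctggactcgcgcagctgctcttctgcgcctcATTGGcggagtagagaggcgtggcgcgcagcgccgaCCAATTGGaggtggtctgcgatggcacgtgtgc
Bcat2, chr7:45569903-45570152, plus strand: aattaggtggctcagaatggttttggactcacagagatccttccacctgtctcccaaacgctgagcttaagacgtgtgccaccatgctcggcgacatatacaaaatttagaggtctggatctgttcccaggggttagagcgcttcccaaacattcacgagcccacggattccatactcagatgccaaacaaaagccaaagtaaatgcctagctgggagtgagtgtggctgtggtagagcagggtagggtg
Ppm1k, chr6:57535488-57535737, minus strand: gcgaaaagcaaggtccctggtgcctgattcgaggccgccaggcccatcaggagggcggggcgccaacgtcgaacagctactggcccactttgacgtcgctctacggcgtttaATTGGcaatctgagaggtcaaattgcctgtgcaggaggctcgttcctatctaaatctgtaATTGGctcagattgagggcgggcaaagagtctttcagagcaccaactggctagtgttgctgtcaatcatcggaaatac
Bckdhb held these letters 76 and 40 bases before the start, Ppm1k 138 and 78 bases before it, and Mccc2 at 69, 33 and 30 bases, where the last 2 share letters within CCAATTGG. Bcat2 held none. Promoters were given for 9 of the 10 members (Dbt had no entry). CCAAT on either strand was present in 7 of the 9 (Bckdhb, Bckdk, Hibadh, Ivd, Mccc1, Mccc2 and Ppm1k) and in 34.5% of 27025 promoters of the same length. CACCC on either strand was present in 7 of the 9, against 51.3% of all promoters, and AAGGTCA on either strand in 0 of the 9, against 4.0%. A match of letters is a description and was not tested as a binding site.

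The first comparison asked how pressure overload changed these genes in WT hearts. Bckdhb and Mccc2 were lower in WT-TAC than in WT-Sham hearts and were the only members called. For all genes tested the share called lower was 1.62%, and 2 of 10 members were called lower and 0 higher (2.92% of all genes). The median log2 fold change was -0.12 over the 10 members and -0.02 over all tested genes, and 9 of 10 members were below 0. This median rests on which of the 2 WT-TAC libraries is kept: it was -0.20 with 10 of 10 members below 0 without replicate 2, and -0.07 with 7 of 10 without replicate 3. No member passed a log2 fold change of 1, the additional threshold of the study, which 0.706% of all genes passed together with the adjusted p.

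Bcat2, on chromosome 7 (45570153 to 45589711, plus strand), starts the pathway in muscle mitochondria. Its level was 139.7, 133, 142 and 141 CPM in WT-Sham and 109.6 and 108 CPM in WT-TAC hearts. HCN4F-Sham hearts gave 157, 135, 158 and 115 CPM and HCN4F-TAC hearts 104, 121, 114 and 97.0 CPM. Both WT-TAC libraries were below all WT-Sham libraries, whereas HCN4F-Sham replicate 4 lay below the highest HCN4F-TAC library. The log2 fold change with TAC was -0.35 (SE 0.12, adjusted p = 0.0910) in WT, which was not called, and -0.37 (SE 0.09, adjusted p = 0.0145) in HCN4F hearts, which was called in edgeR's test. A fit on the compared groups alone turned these calls round, with adjusted p = 0.00772 in WT and 0.0521 in HCN4F hearts (edgeR). An antisense gene, 0610005C13Rik, covers 15.9% of the exon bases of Bcat2 and averaged 0.41 CPM.

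Bckdhb, on chromosome 9 (83925145 to 84124240, plus strand), encodes the β subunit of the E1 decarboxylase. It gave 70.3, 70.0, 69.7 and 75.9 CPM in WT-Sham and 53.4 and 50.9 CPM in WT-TAC hearts. In HCN4F hearts the values were 62.4, 60.4, 61.5 and 58.5 CPM after Sham and 45.4, 38.0, 55.6 and 37.0 CPM after TAC. All TAC libraries lay below all Sham libraries of the same genotype. The log2 fold change was -0.45 (SE 0.12, adjusted p = 0.0470) in WT and -0.46 (SE 0.10, adjusted p = 0.00590) in HCN4F hearts (edgeR), or 27.0% and 27.5% lower.

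Mccc2, on chromosome 13 (99948530 to 100015639, minus strand), encodes the β subunit of methylcrotonyl-CoA carboxylase. Its levels were 56.9, 55.9, 57.5 and 55.3 CPM in WT-Sham and 45.2 and 43.1 CPM in WT-TAC hearts. HCN4F-Sham hearts had 53.1, 47.4, 53.4 and 50.6 CPM and HCN4F-TAC hearts 40.3, 33.4, 43.4 and 36.5 CPM. Again the Sham and TAC libraries of a genotype did not overlap. The log2 fold change was -0.35 (SE 0.09, adjusted p = 0.0443) in WT and -0.41 (SE 0.08, adjusted p = 0.00213) in HCN4F hearts (edgeR).

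In WT hearts 4 of 10 members (Bcat2, Bckdha, Bckdhb and Mccc2) had both TAC libraries below all Sham libraries, against 20.0% of all tested genes. The calls of Bckdhb and Mccc2 in WT rest on few libraries and on the settings of the fit. Bckdhb was not called without robust estimation (adjusted p = 0.0508 from edgeR), nor Mccc2 without a filter on low counts (adjusted p = 0.0706 from edgeR). Neither gene was called when any of the 4 WT-Sham libraries, WT-TAC replicate 2 or 3, HCN4F-Sham replicate 4 or HCN4F-TAC replicate 1 was left out, and without HCN4F-TAC replicate 4 only Bckdhb was, while the log2 fold change stayed between -0.49 and -0.42 for Bckdhb and between -0.39 and -0.32 for Mccc2.

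**Figure D1:**
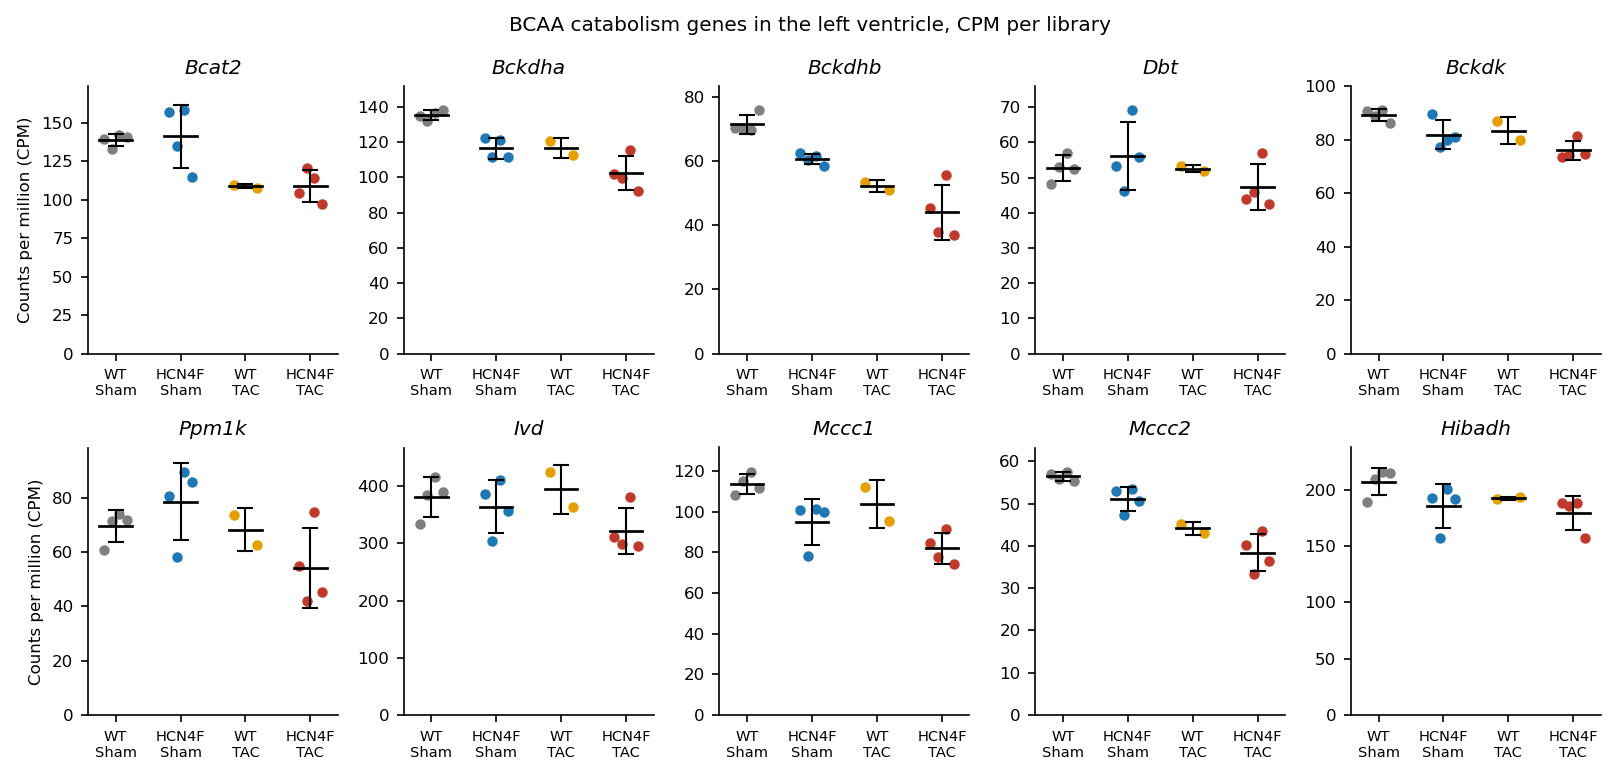
Level of the 10 genes in each library, in CPM (TMM-scaled, linear axis from 0). Points are libraries, horizontal lines the group mean and bars the SD (WT-TAC n = 2, others n = 4). For Bckdhb and Mccc2 all TAC points lie below the Sham points of the same genotype.

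The same question was asked in HCN4F hearts, where n = 4 was compared with n = 4. Bcat2, Bckdhb, Mccc2 and Ppm1k were lower after TAC, so that 4 of 10 members were called lower against 6.41% of all tested genes, and 0 were called higher (7.20% of all genes). All 10 members had a log2 fold change below 0, with a median of -0.23 against -0.01 over all tested genes, and none passed a log2 fold change of 1 (2.75% of all genes did, with the adjusted p). Libraries did not overlap for Bckdhb and Mccc2, 2 of 10 members, against 7.16% of all genes.

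Ppm1k, on chromosome 6 (57506502 to 57535468, minus strand), had the largest fitted change of the 10 and also the widest spread. Its levels were 80.7, 58.0, 89.5 and 85.6 CPM in HCN4F-Sham and 55.0, 42.0, 74.7 and 45.3 CPM in HCN4F-TAC hearts. WT hearts gave 60.9, 71.2, 73.9 and 71.9 CPM after Sham and 73.7 and 62.6 CPM after TAC. HCN4F-TAC replicate 3 lay within the range of the HCN4F-Sham libraries, and HCN4F-Sham replicate 2 within that of the HCN4F-TAC libraries. The log2 fold change was -0.53 (SE 0.17, adjusted p = 0.0490) in HCN4F and -0.03 (SE 0.20, adjusted p = 0.956) in WT hearts (edgeR). The HCN4F call lies at the threshold. It was kept only without WT-Sham replicate 1, HCN4F-Sham replicate 2 or HCN4F-TAC replicate 3 among the 14 fits that leave out 1 library, with log2 fold changes of -0.73 to -0.43 and adjusted p = 0.00200 to 0.130 (edgeR).

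Bckdk, the kinase that switches BCKDH off, lies on chromosome 7 (127904082 to 127910221, plus strand). It gave 90.8, 88.9, 91.0 and 86.5 CPM in WT-Sham, 89.8, 77.2, 80.0 and 80.9 CPM in HCN4F-Sham, 87.0 and 79.9 CPM in WT-TAC and 73.7, 74.2, 81.4 and 74.8 CPM in HCN4F-TAC hearts. The groups overlapped in both TAC comparisons. Its log2 fold change was -0.10 (95% confidence interval -0.27 to 0.07) in WT and -0.11 (-0.25 to 0.03) in HCN4F hearts, neither of which was called.

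The ratio of Bckdk to Ppm1k within a library was computed as a description, with no test. It was 1.49, 1.25, 1.23 and 1.20 in WT-Sham and 1.11, 1.33, 0.89 and 0.94 in HCN4F-Sham hearts. After TAC it was 1.18 and 1.28 in WT and 1.34, 1.77, 1.09 and 1.65 in HCN4F hearts. The HCN4F-TAC libraries overlapped with the other groups and held the 2 highest values. These are ratios of transcript levels and give neither protein amounts nor the phosphorylation of BCKDH.

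**Figure D2:**
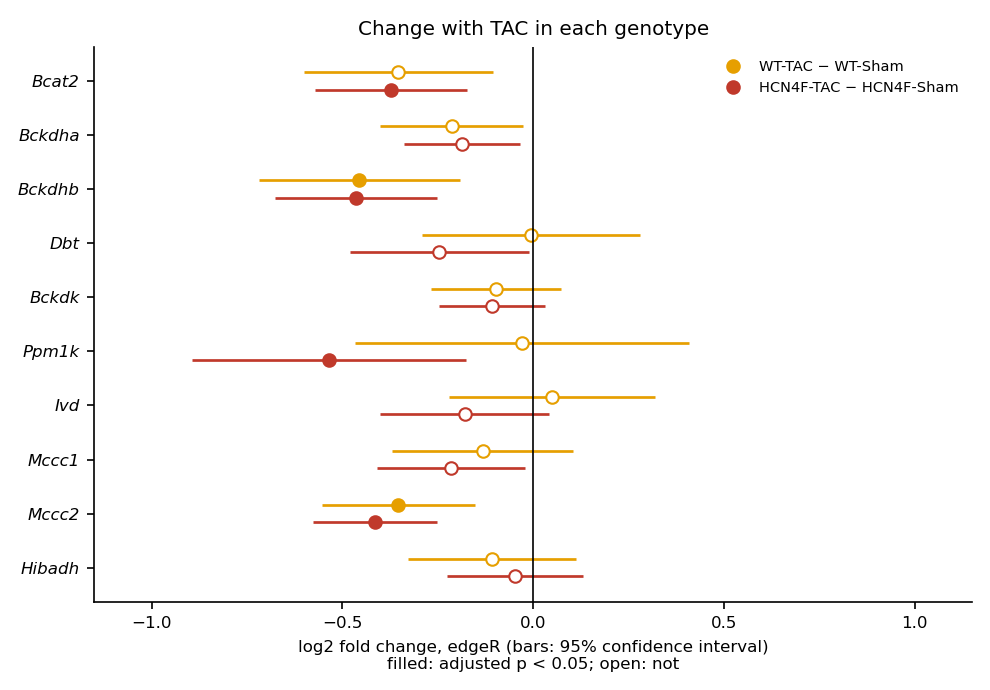
Log2 fold change with TAC of the 10 genes in WT (orange) and HCN4F hearts (red), with 95% confidence intervals from edgeR. Filled points have an adjusted p under 0.05: Bckdhb and Mccc2 in both genotypes, Bcat2 and Ppm1k in HCN4F hearts.

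Bckdha, on chromosome 7 (25629946 to 25658981, minus strand), encodes the α subunit that carries the phosphorylation sites of E1. Its levels were 135, 132, 137 and 138 CPM in WT-Sham and 121 and 113 CPM in WT-TAC hearts. HCN4F hearts gave 122, 111, 121 and 112 CPM after Sham and 102, 99.8, 116 and 92.3 CPM after TAC. WT-Sham libraries were the highest of all. The log2 fold change with TAC was -0.21 (SE 0.09, adjusted p = 0.170) in WT and -0.19 (SE 0.07, adjusted p = 0.0978) in HCN4F hearts, neither called in edgeR's test. B3gnt8, on the opposite strand, overlaps 61.7% of the exon bases of Bckdha and averaged 14.2 CPM. Whether strand was used in counting is not given in the sources used here, so reads of these genes may not be separable.

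The ratio of Bckdha to Bckdhb within a library was chosen after the values were seen and is a description. It was 1.82 to 1.97 in the 8 Sham libraries and 2.08 to 2.63 in the 6 TAC libraries, with no overlap. WT-TAC hearts had 2.26 and 2.22, and HCN4F-TAC hearts 2.25, 2.63, 2.08 and 2.49. In these libraries fewer reads were counted for Bckdhb per read counted for Bckdha after TAC in both genotypes. Reads of B3gnt8 may be among those of Bckdha, and their part in the ratio was not tested. Of the other ratios computed, that of Mccc1 to Mccc2 was 1.65 to 2.08 in Sham and 2.03 to 2.48 in TAC libraries, and that of Bcat2 to Dbt 2.06 to 2.94 and 2.00 to 2.64. Both overlapped over all libraries, although within a genotype the first was higher in every TAC than in every Sham library in WT and in HCN4F hearts, and the second was lower in both WT-TAC than in all WT-Sham libraries.

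**Figure D3:**
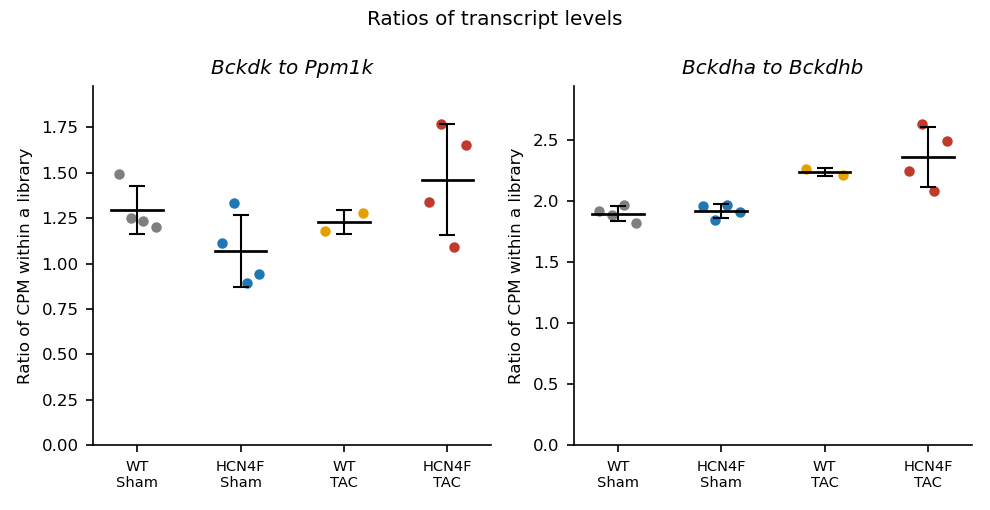
Ratio of Bckdk to Ppm1k (left) and of Bckdha to Bckdhb (right) within each library, as ratios of CPM on a linear axis from 0. Points are libraries, lines the group mean and bars the SD (WT-TAC n = 2, others n = 4), and the right panel shows all 6 TAC libraries at 2.08 or more and all 8 Sham libraries at 1.97 or less.

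Dbt, the E2 core of BCKDH on chromosome 3 (116513070 to 116549981, plus strand), gave 48.1 to 57.1 CPM in WT-Sham, 46.3 to 69.1 in HCN4F-Sham, 53.2 and 51.8 in WT-TAC and 42.6 to 57.0 CPM in HCN4F-TAC hearts. All groups overlapped. Its log2 fold change was -0.01 (95% confidence interval -0.29 to 0.28) in WT and -0.25 (-0.48 to -0.01, adjusted p = 0.155 from edgeR) in HCN4F hearts. The sign in WT changed with the setting and has no direction.

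Ivd, which oxidises isovaleryl-CoA in the leucine arm, lies on chromosome 2 (118861954 to 118882909, plus strand). It ranged from 335 to 417 CPM in WT-Sham, 304 to 411 in HCN4F-Sham, 364 to 425 in WT-TAC and 295 to 380.4 CPM in HCN4F-TAC hearts. Its log2 fold change was 0.05 (-0.22 to 0.32) in WT and -0.18 (-0.40 to 0.04) in HCN4F hearts, and neither was called. Mccc1, the biotin-carrying subunit next in that arm (chromosome 3, 35959312 to 36000678, minus strand), had log2 fold changes of -0.13 (SE 0.11, adjusted p = 0.520) and -0.22 (SE 0.09, adjusted p = 0.133) in edgeR's test. Of the carboxylase, Mccc2 alone was therefore called after TAC, and whether its change differed from that of Mccc1 was not tested. Hibadh, in the valine arm (chromosome 6, 52546228 to 52640389, minus strand), gave 189 to 216 CPM in WT-Sham, 157 to 201 in HCN4F-Sham, 191 and 193 in WT-TAC and 157 to 188 CPM in HCN4F-TAC hearts. Its log2 fold change was -0.11 (-0.33 to 0.11) in WT and -0.05 (-0.23 to 0.13) in HCN4F hearts.

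Whether the change with TAC differed between the genotypes was tested with the interaction of genotype and surgery. No member was called by edgeR or by DESeq2, none had an unadjusted p under 0.05 (9.27% of all genes did), and 0% of all tested genes were called. The largest difference was that of Ppm1k (-0.51, SE 0.26, unadjusted p = 0.0746 and adjusted p = 0.577 in edgeR's model). For Bckdhb it was -0.01 (95% confidence interval -0.34 to 0.32) and for Mccc2 -0.06 (-0.32 to 0.20), and differences within these intervals could not be told apart from none. That Bcat2 and Ppm1k were called in HCN4F and not in WT hearts does not show that the genotypes differed.

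The comparisons between genotypes asked for a difference at the same surgery. In Sham hearts 0 of 10 members were called by edgeR or DESeq2, against 0.471% of all genes in edgeR. Bckdha, Bckdhb and Mccc1 had an unadjusted p under 0.05 (3 of 10 members, 15.2% of all genes). The log2 fold change of HCN4F-Sham against WT-Sham was -0.22 for Bckdha (SE 0.07, adjusted p = 0.174), -0.24 for Bckdhb (SE 0.10, adjusted p = 0.276) and -0.26 for Mccc1 (SE 0.09, adjusted p = 0.203) in edgeR's test, none of which is a call. For Mccc1 the WT-Sham libraries gave 108, 115, 119.5 and 112 CPM and the HCN4F-Sham libraries 101, 78.2, 101 and 99.7 CPM. All HCN4F-Sham libraries lay below all WT-Sham libraries for these genes and for Mccc2, 4 of 10 members, against 4.67% of all genes. The 10 members had a median of -0.13 against 0.00 over all genes. Ppm1k had the largest positive value, 0.18 (95% confidence interval -0.18 to 0.53). Bckdhb and Hcn4 are both on chromosome 9, 25.1 Mb apart, and a part of this position in the Bckdhb value was not tested.

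After TAC, 0 of 10 members were called between the genotypes by edgeR or DESeq2, against 0.111% of all genes in edgeR. Bckdha, Ivd, Mccc1 and Mccc2 had an unadjusted p under 0.05 (4 of 10 members, 12.5% of all genes). Below 0 were 9 of 10 members, with a median of -0.20 against 0.00 over all genes. This median was -0.15 or -0.24 without WT-TAC replicate 2 or 3, and -0.26 or -0.16 without HCN4F-TAC replicate 3 or 4. Mccc1 gave 112 and 95.3 CPM in WT-TAC and 84.4, 77.5, 91.7 and 74.1 CPM in HCN4F-TAC hearts. These libraries did not overlap, with a log2 fold change of -0.34 (SE 0.11, adjusted p = 0.220 from edgeR), which became -0.22 or -0.45 when WT-TAC replicate 2 or 3 was left out. Hibadh was the other member without overlap, which makes 2 of 10 against 11.0% of all genes, with a log2 fold change of -0.10 (-0.32 to 0.12). For Ivd the value was -0.29 (SE 0.13, adjusted p = 0.354) in edgeR's test, and -0.18 or -0.40 with the same libraries left out in turn. Without HCN4F-TAC replicate 3, the library with the highest Bckdhb level of its group, Bckdhb was called between the TAC groups (-0.38, adjusted p = 0.0366 from edgeR), against -0.24 (adjusted p = 0.424) with it. The WT-TAC libraries enter 2 of the comparisons, as do the groups WT-Sham, HCN4F-Sham and HCN4F-TAC, so the comparisons are not independent of each other.

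**Figure D4:**
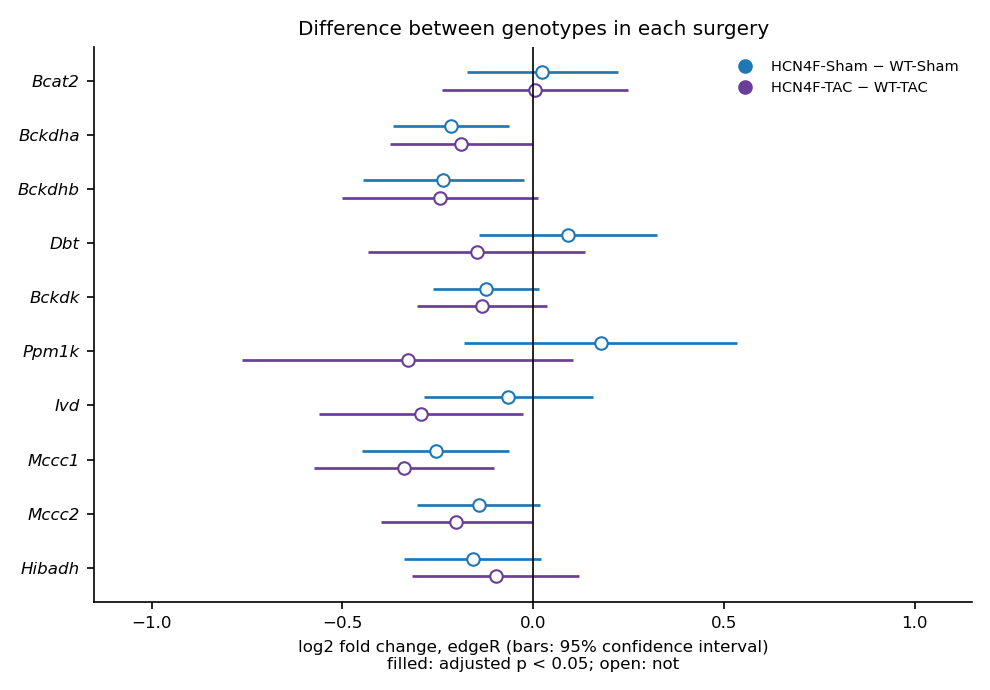
Log2 fold change between HCN4F and WT hearts of the 10 genes after Sham (blue) and after TAC (purple), with 95% confidence intervals from edgeR. All points are open, since no adjusted p was under 0.05, and 7 of 10 values after Sham and 9 of 10 after TAC are below 0.

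HCN4F-TAC replicate 3 stood apart from the other libraries of its group in several members, with the highest level of Bckdha, Bckdhb, Dbt, Bckdk, Ppm1k, Ivd, Mccc1 and Mccc2. Its 8 fibroblast marker genes summed to 998 CPM, against 1531, 1753 and 1601 CPM in replicates 1, 2 and 4, and the part of this in the levels of the members was not tested. Leaving it out gave 6 called members in HCN4F hearts in place of 4 (Bckdha and Dbt in addition), and leaving out HCN4F-TAC replicate 4 gave 2 (Bckdhb and Mccc2). Without HCN4F-TAC replicate 2, the library with the atrial myocyte genes, 3 members were called (Bcat2, Bckdhb and Mccc2). HCN4F-Sham replicate 2 had the lowest level of its group in 8 members (Bckdha, Dbt, Bckdk, Ppm1k, Ivd, Mccc1, Mccc2 and Hibadh), although for Bckdha it was level with replicate 4 (111 and 112 CPM). Its fibroblast genes summed to 1017 CPM, against 792 to 811 CPM in the other HCN4F-Sham libraries, and its endothelial genes to 1237 CPM, against 679 to 1046 CPM, and their part in the levels of the members was not tested. Leaving it out gave 5 called members in HCN4F hearts (Mccc1 in addition) and a median log2 fold change after TAC of -0.31 in place of -0.23. Between the Sham groups the median of the members was then -0.09 in place of -0.13, with 6 of 10 below 0.

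Members varied together over the 14 libraries, which share the groups and the scaling. Pearson's r of log2 CPM was above 0 in all 45 pairs of members, with a median of 0.72. It was highest for Bckdhb with Mccc2 (0.97) and Bckdha with Bckdhb (0.94), and lowest for Dbt with Bckdk (0.44) and Bcat2 with Ivd (0.44). Pairs of other genes were not computed, so whether such values are particular to the members was not tested. The 5 genes outside the members whose log2 CPM was most like the mean of the members' standardised values were Etfa (r = 0.99), Rab12 (0.97), Slc2a4 (0.97), Pcca (0.96) and Adhfe1 (0.96), over 14 libraries. Etfa encodes a subunit of the electron transfer flavoprotein, which takes electrons from acyl-CoA dehydrogenases, Ivd among them, Slc2a4 the insulin-responsive glucose transporter and Pcca a subunit of propionyl-CoA carboxylase.

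Other genes of the pathway, 24 in number, cover transport, the cytosolic aminotransferase, the E3 subunit, the remaining steps of the arms and a transcription factor. In WT hearts 1 of 24 was called higher and 1 lower after TAC, against 2.92% and 1.62% of all genes. In HCN4F hearts 3 of 24 were called higher and 3 lower, against 7.20% and 6.41% of all genes. Nothing is read from these small counts about the list as a whole. Between genotypes 0 of 24 were called in edgeR (0.471% of all genes after Sham and 0.111% after TAC). At an unadjusted p under 0.05 there were 2 of 24 after Sham (15.2% of all genes) and 4 of 24 after TAC (12.5%). For the interaction 0 of 24 were called, with 3 of 24 at an unadjusted p under 0.05 (9.27% of all genes). The 3 genes called higher in either genotype were Slc7a5, Slc3a2 and Slc43a2, of 5 plasma membrane transporter genes on the list. The others were not called, Slc7a8 with -0.04 in WT and 0.11 in HCN4F hearts and Slc43a1 with -0.04 and -0.45. Slc7a5, the light chain of the large neutral amino acid exchanger, rose from 5.87, 5.43, 6.47 and 6.31 CPM in HCN4F-Sham to 11.3, 13.3, 9.61 and 10.9 CPM in HCN4F-TAC hearts. The groups did not overlap (log2 fold change 0.90, SE 0.11, adjusted p = 0.000122 from edgeR). In WT hearts it was 5.58, 6.20, 6.39 and 6.44 CPM after Sham and 9.16 and 7.18 CPM after TAC, which was not called (0.40, SE 0.14, adjusted p = 0.101 from edgeR). Its partner chain Slc3a2 rose in HCN4F hearts (0.32, SE 0.09, adjusted p = 0.0325 from edgeR), where the groups overlapped, and had a value of -0.13 in WT hearts (SE 0.12, adjusted p = 0.527), which was not called. The interaction was 0.45 for Slc3a2 (unadjusted p = 0.00778, adjusted p = 0.442) and 0.50 for Slc7a5 (unadjusted p = 0.0135, adjusted p = 0.466) in edgeR's model, so a difference between the genotypes was not called for either gene. Slc43a2, a further transporter of large neutral amino acids, rose in WT (0.51, SE 0.11, adjusted p = 0.0245) and HCN4F hearts (0.47, SE 0.10, adjusted p = 0.00387) in edgeR's test. Slc25a44, the mitochondrial BCAA carrier, was not called (0.20 in WT and 0.10 in HCN4F hearts).

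The genes called lower were Mcee, Auh and Hsd17b10. Mcee, the methylmalonyl-CoA epimerase of the propionyl-CoA arm, gave 50.3, 41.5, 43.5 and 44.9 CPM in WT-Sham and 32.9 and 34.5 CPM in WT-TAC hearts. HCN4F hearts had 42.0, 46.4, 40.3 and 40.8 CPM after Sham and 33.6, 30.7, 29.7 and 31.0 CPM after TAC. TAC libraries were below Sham libraries in both genotypes, with log2 fold changes of -0.42 (SE 0.09, adjusted p = 0.0219) and -0.44 (SE 0.07, adjusted p = 0.00109) from edgeR. In HCN4F hearts Auh, the hydratase that follows methylcrotonyl-CoA carboxylase, fell by 0.23 on the log2 scale (SE 0.07, adjusted p = 0.0336), and Hsd17b10, a dehydrogenase of the isoleucine arm, fell by 0.35 (SE 0.09, adjusted p = 0.0196) in edgeR's test. Neither was called in WT hearts (-0.11 for Auh and -0.28 for Hsd17b10). Dld, the E3 subunit that BCKDH shares with other dehydrogenases, was not called (0.18 in WT and -0.05 in HCN4F hearts). The cytosolic aminotransferase gene Bcat1 had 0.43 to 1.55 CPM in all libraries and was not called. Klf15, a transcription factor known to promote BCAA catabolic genes, gave -0.24 (SE 0.29) in WT and -0.44 (SE 0.24, adjusted p = 0.255 from edgeR) in HCN4F hearts, with 83.8 and 38.8 CPM in the WT-TAC libraries.

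**Figure D5:**
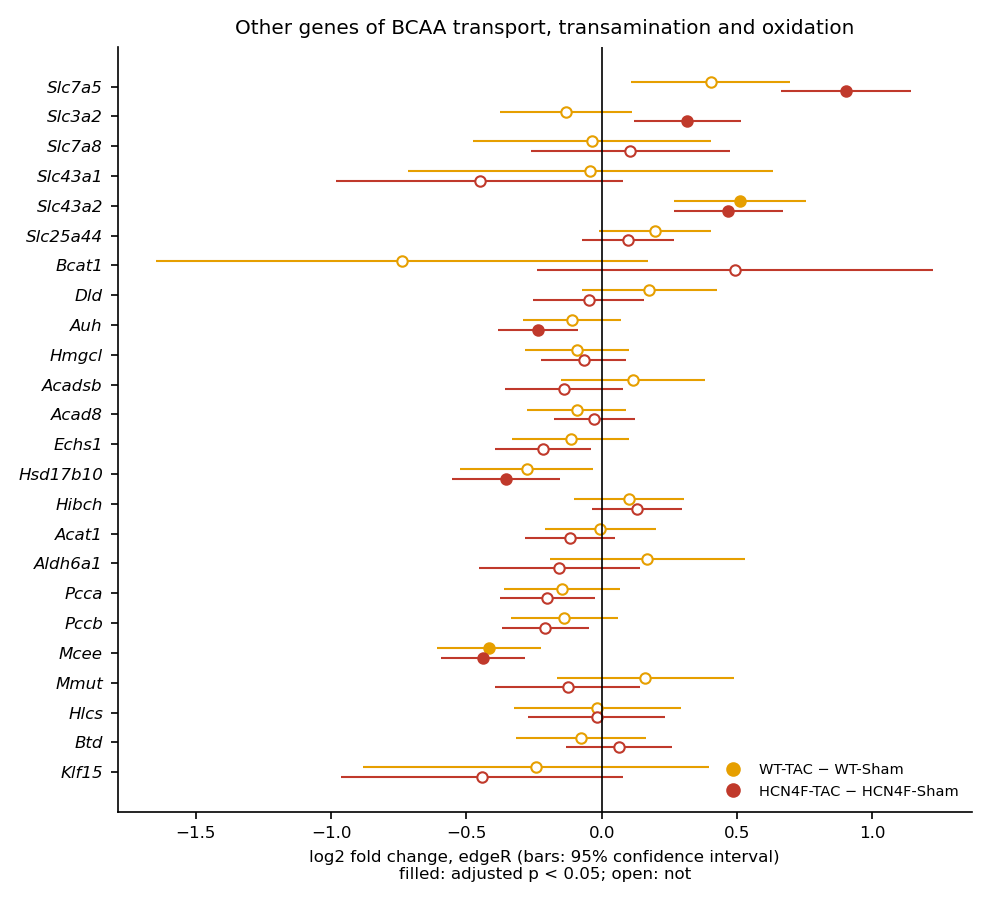
Log2 fold change with TAC of 24 further genes of BCAA transport and breakdown in WT (orange) and HCN4F hearts (red), with 95% confidence intervals from edgeR. Filled points have an adjusted p under 0.05, higher for Slc7a5, Slc3a2 and Slc43a2 and lower for Auh, Hsd17b10 and Mcee.

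Lower levels after TAC were not limited to BCAA genes. Of 16 genes of the tricarboxylic acid cycle, 1 was called lower in WT and 5 in HCN4F hearts (1.62% and 6.41% of all genes), with medians of -0.12 and -0.18, beside -0.02 and -0.01 over all tested genes. Of 17 genes of fatty acid beta-oxidation, 2 were called lower in WT and 11 in HCN4F hearts, against the same shares of all genes, with medians of -0.13 and -0.29, beside -0.12 and -0.23 for the 10 BCAA genes, where the WT value became -0.20 or -0.07 when WT-TAC replicate 2 or 3 was left out. Between the TAC groups the medians were -0.21, -0.26 and -0.20 in the same order, with 0 calls by edgeR in any of the lists. The BCAA value became -0.15 or -0.24 when WT-TAC replicate 2 or 3 was left out. An unadjusted p under 0.05 was held by 12 of 16, 11 of 17 and 4 of 10 genes (12.5% of all genes). Between the Sham groups the medians were -0.17, -0.07 and -0.13, with 16 of 16, 16 of 17 and 7 of 10 genes below 0, 0 calls by edgeR, and 8 of 16, 0 of 17 and 3 of 10 genes at an unadjusted p under 0.05 (15.2% of all genes). A difference between the lists was not tested.

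The cell type markers are given as sums over the genes of a list in each library, and the sums were not tested. The summed level of the 8 cardiomyocyte genes was 69932 to 72433 CPM in WT-Sham, 61496 to 65620 in HCN4F-Sham, 65505 to 65760 in WT-TAC and 52881 to 59411 CPM in HCN4F-TAC hearts, and after TAC 2 of the 8 were called lower and 1 higher in WT hearts (1.62% and 2.92% of all genes), and 4 lower and 2 higher in HCN4F hearts (6.41% and 7.20% of all genes). The 8 fibroblast genes summed to 998 to 1753 CPM in HCN4F-TAC hearts and to 781 to 1017 CPM in the other groups. After TAC in HCN4F hearts 5 of 8 were called higher (7.20% of all genes). Between the genotypes 0 of 8 cardiomyocyte and 0 of 8 fibroblast genes were called by edgeR. The shares of all genes were 0.471% after Sham and 0.111% after TAC. The 4 red blood cell genes summed to 84.7 and 94.3 CPM in WT-TAC and to 96.7 to 210 CPM in WT-Sham hearts. The macrophage genes summed to 112 and 114 CPM against 118 to 141 CPM. Neither overlapped, where 20.0% of all tested genes were lower without overlap between these groups. In HCN4F hearts the red blood cell sums were 67.9 to 188 CPM after Sham and 94.8 to 347 CPM after TAC. The macrophage sums were 115 to 153 and 112 to 193 CPM. Endothelial, macrophage, mural and red blood cell genes gave 0 calls by edgeR in the 4 comparisons, and the 5 adipocyte genes summed to at most 0.49 CPM. Mitochondrial genes took 13.9% to 18.6% of the counts in HCN4F-TAC, 18.4% to 20.0% in WT-TAC, 17.1% to 21.4% in HCN4F-Sham and 19.6% to 23.1% in WT-Sham libraries. The part of cell composition or of the mitochondrial share in the values of the BCAA genes was not tested, and in bulk tissue fewer cells of a type and less RNA per cell cannot be told apart.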

How the data were processed

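RNA of the left ventricle was extracted with a fibrous tissue kit, selected for poly(A) and sequenced on an Illumina platform. The authors deposited raw counts, whole numbers of reads per gene without normalization. The genome build is GRCm38 per the labels, and the aligner, the counting program, their versions and the use of strand are not given in the sources used here. Groups were taken from the sample labels. The table holds 16 sample columns, of which 2 matched no sample used here and were left out.

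Genes were kept with filterByExpr by group in edgeR 4.0.16 (R 4.3.3), counts were scaled by TMM, and all 14 libraries were fitted in 1 model with a mean per group (quasi-likelihood test, robust, Benjamini-Hochberg adjustment over 15292 genes). Correlations used log2 CPM with a prior count of 2. A count of 0 allows up to 3 reads, but no member was near it, so that the spread between hearts and not depth limits the precision. Exon lengths and positions were taken from GENCODE M21 (GRCm38), which held 99.5% of the table's gene IDs, and promoters from RefSeq. Scripts were tested on simulated data. The 10 members, the gene lists and the marker lists were chosen with earlier results of these data known. All 10 members are named, and of the other pathway genes Bcat1, Dld, Klf15, Slc25a44 and every gene called in a comparison. Slc7a8 and Slc43a1 are named as the remaining plasma membrane transporters, and Pcca as a gene most like the members. Alternatives were DESeq2 1.42.0, the compared groups alone, size factors, no filter, a CPM minimum of 1 on average, estimation without the robust option, the replicate number as a block, the fold threshold of the study, other CPM totals, and each library left out in turn. The authors' qPCR and physiology were not analysed here.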

Additional observations from a re-analysis of the deposited data

Results flagged for a closer look

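Of 42 groups of 4 libraries tested with Dixon's ratio, 5 held a library far from the others of its group, where chance alone flags about 1 in 20. Bckdhb was 75.9 CPM in WT-Sham replicate 4, with 69.7 to 70.3 CPM in the other WT-Sham libraries. Bckdk was 81.4 CPM in HCN4F-TAC replicate 3, with 73.7 to 74.8 CPM in the others. Mccc1 was 78.2 CPM in HCN4F-Sham replicate 2, against 99.7 to 101 CPM in the others, and without that library it was called lower after TAC in HCN4F hearts (-0.30, adjusted p = 0.0252 from edgeR). Hibadh was 156.8 CPM in HCN4F-TAC replicate 4, against 185 to 188 CPM in the others. The ratio of Bckdk to Ppm1k was 1.49 in WT-Sham replicate 1, against 1.20 to 1.25 in the other WT-Sham libraries.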

How the results depend on the processing

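In WT hearts 2 members were called, against 3 in a fit on the compared groups (with Bcat2), 1 without a filter (Bckdhb), 1 without robust estimation (Mccc2), 0 with the replicate number as a block (adjusted p = 0.0856 for Bckdhb and 0.0837 for Mccc2 from edgeR) and 0 with the study's fold threshold, and 0 to 2 with 1 library left out. In HCN4F hearts 4 members were called, against 2 in a fit on the compared groups, 0 with the fold threshold, and 2 to 6 with 1 library left out (6 with Bckdha and Dbt in addition). Bckdhb and Mccc2 were called in HCN4F hearts in every setting that used the adjusted p alone. Bcat2 lost its HCN4F call with the compared groups and without HCN4F-TAC replicate 4 (adjusted p = 0.0536 from edgeR). Ppm1k lost it with the compared groups, size factors, no filter and the replicate block (adjusted p = 0.0503 to 0.165 from edgeR). Between genotypes and for the interaction 0 members were called in every setting, except 1 between the TAC groups without HCN4F-TAC replicate 3.

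Dbt in WT hearts turned to 0.00677 with DESeq2, 0.00872 with the compared groups, 0.00397 with size factors and 0.0187 without a filter. Bcat2 between the TAC groups turned to -0.00476 with DESeq2, -0.004555 with size factors and -0.00783 without a filter. With the replicate block the interaction of Bcat2 was 0.0384 and that of Bckdhb 0.00305. The median correlation between the deviations of same-numbered libraries of different groups was -0.0019 in 18 pairs, 2 of them above 0.1. For libraries with other numbers it was 0.0089 in 54 pairs, 8 of them above 0.1. WT-TAC enters these pairs with 2 libraries only, and whether the numbers pair the hearts was not tested.

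Leaving out 1 library turned the sign of small differences that were not called. After TAC in WT the ranges were -0.053 to 0.034 for Dbt, -0.15 to 0.087 for Ppm1k and -0.066 to 0.16 for Ivd, and in HCN4F hearts -0.12 to 0.012 for Hibadh. Between Sham groups they were -0.033 to 0.11 for Bcat2, -0.024 to 0.17 for Dbt and -0.13 to 0.012 for Ivd, and between TAC groups -0.059 to 0.057 for Bcat2. For the interaction they were -0.11 to 0.036 for Bcat2, -0.038 to 0.077 for Bckdha, -0.14 to 0.065 for Bckdhb, -0.072 to 0.050 for Bckdk, -0.20 to 0.035 for Mccc1 and -0.012 to 0.12 for Hibadh. CPM over nuclear genes leaves the mitochondrial counts, 13.9% to 23.1% of a library, out of the total, so that the level of every member rises. It moved 39 of 40 group means by more than 1 SD, and CPM by total counts moved 4 of 40. The cause of the sign changes was not tested.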
